A study of Mus musculus with 30 samples.

Results

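Muribaculaceae are a family of the order Bacteroidales, and the sequence variants of the 16S rRNA gene that carry this family name were followed in mouse stool through weaning, co-housing and re-separation. A member is any variant in the deposited table whose taxon label names the family, Muribaculum included, and that had reads in at least 1 of the 30 libraries. There were 126 such variants among 949 with non-mitochondrial reads, and another 277 rows with this family name had no reads. The weaning and co-housing libraries held 64 of the 126 and the re-separation libraries the other 62. No variant of any family had reads in both of these library sets, so variants were compared within a set and only their sums across all 6 groups. Each set held 1 variant named to the genus Muribaculum, rows 77 and 720. Variants are named by their row in the table. No sequence or other marker of the family was at hand against which to check the label, so it rests on the deposited taxon names.

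The animals were female mice without a functional Gpr15l gene (Gpr15l-/-, here KO) and wild-type (WT) females. Gpr15l encodes a peptide made by gut and skin epithelium that binds the lymphocyte receptor GPR15. Stool was collected at weaning, at about 4 weeks of age, after 4 to 5 weeks in which both genotypes shared cages of 2 to 7 mice, and after 6 more weeks in which they were housed apart. Each genotype had 5 libraries at each time. KO libraries are numbered 1 to 5, 11 to 15 and 21 to 25 in the order of the 3 times, and WT libraries 6 to 10, 16 to 20 and 26 to 30. Neither cage, litter nor the identity of a mouse across times is labelled, so p-values measure the spread between these libraries, which may share cages. The samples include no mice housed apart from weaning on, so co-housing cannot be told apart from age, nor re-separation from library set.

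Muribaculaceae are among the most abundant bacteria of the mouse gut. They ferment plant polysaccharides and glycans of the host's mucus to acetate and propionate, and many of them are known only from sequences. A label that stops at the family names no genus. Mice eat faeces, their own and those of cage mates, and this carries gut bacteria from one animal to another. A 16S variant is a distinct sequence of a short stretch of the gene, so a variant can be a strain, a species or 1 of several gene copies within a genome.

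Libraries held 10560 to 73776 reads, with more in the re-separation set (39735 to 73776) than in the other set (10560 to 52398). Shares are percentages of the non-mitochondrial reads of a library. They are relative, so a higher share of the family and lower numbers of other bacteria cannot be told apart. Where a group had 0 reads, the share that 3 counts would give is used as a floor. It was 0.00573% to 0.0192% in the WT and 0.0088% to 0.0286% in the KO weaning libraries. Intervals and floors of this kind cover counting error only, since PCR reads are not independent molecules.

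The family's mean share was 19.2% to 29.8% of the reads of a group at weaning and after re-separation, and 7.49% and 11.2% after co-housing. KO libraries 1 to 5 held 18.9%, 29.3%, 14.2%, 42.3% and 9.88% at weaning (22.9% ± 13.0; SD, n = 5), and WT libraries 6 to 10 held 42.2%, 23.7%, 21.0%, 28.9% and 24.3% (28.0% ± 8.41). The KO libraries spread more widely than the WT ones, and the ranges overlapped. After co-housing the shares were 8.10%, 5.88%, 5.72%, 11.9% and 5.82% in KO mice (7.49% ± 2.67) and 8.93%, 9.48%, 6.09%, 26.5% and 5.02% in WT mice (11.2% ± 8.74). Library 19 stood above the other 9 co-housed libraries. After re-separation KO libraries held 45.1%, 36.7%, 24.9%, 21.6% and 20.8% (29.8% ± 10.7) and WT libraries 28.7%, 22.2%, 13.4%, 13.5% and 18.2% (19.2% ± 6.46). The re-separated groups overlapped too, with WT libraries 26 and 27 inside the KO range.

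**Figure D1:**
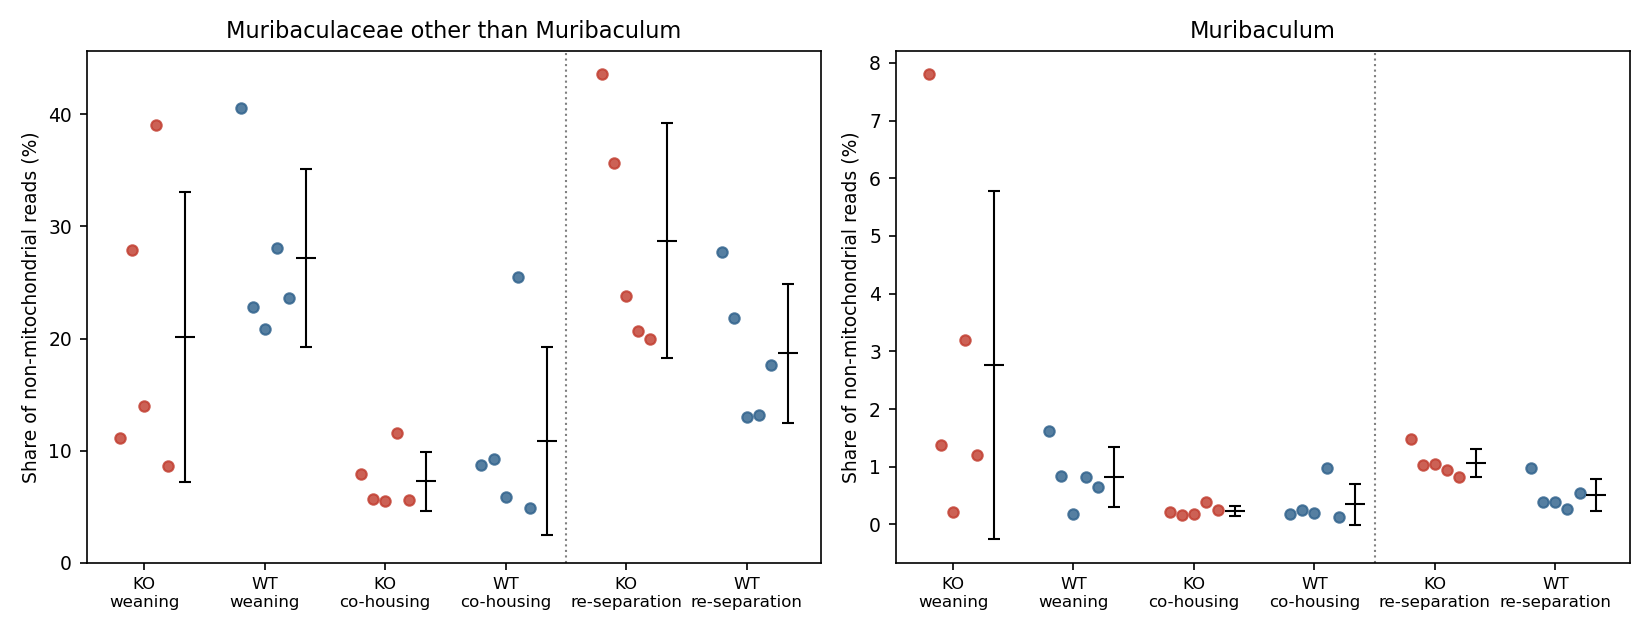
Share of non-mitochondrial reads (%) of Muribaculaceae other than Muribaculum (left) and of Muribaculum (right) in each library, KO in red and WT in blue, with the group mean and SD (n = 5) as a black dash and bar. The dotted line parts the 2 library sets; the co-housed groups have the lowest means in both panels, with WT library 19 apart at 25.5% and 0.977%, and KO library 1 stands alone at 7.81% Muribaculum.

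Without Muribaculum, the family fell over the weeks of co-housing in both genotypes. In WT mice it went from 27.2% ± 7.92 to 10.8% ± 8.39 (SD, n = 5), with an edgeR log2 fold change of -2.04 ± 0.61 (SE; adjusted p = 0.0122). In KO mice it went from 20.1% ± 12.9 to 7.25% ± 2.59, a log2 fold change of -1.95 ± 0.60 (edgeR adjusted p = 0.0108). Over the 71 genera tested, 29.6% were called in this comparison in WT and 32.4% in KO mice, in either direction. Most of these calls were higher. Called lower were 6 of the 71 genera in WT and 9 in KO mice, this sum included. The genera as a whole moved the other way, with a median log2 fold change of 0.75 in WT and 0.71 in KO mice. The fall was not particular to the family within its order. All other Bacteroidales together went from 48.3% ± 3.72 to 25.7% ± 8.64 of reads in WT mice. In KO mice they went from 38.2% ± 10.9 to 20.5% ± 11.4. Among them Marinifilaceae rose, from 1.25% to 2.15% in WT and from 0.236% to 1.05% in KO mice. These shares of other families were not tested. The KO call was lost without library 4, the KO weaning library with most of the family (-1.06, edgeR adjusted p = 0.145), and with limma-voom (-1.39, adjusted p = 0.0871). Without library 19 the co-housed WT mean was 7.19%, and the log2 fold change was -2.99.

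From co-housing to re-separation the same sum rose in KO mice, from 7.25% ± 2.59 to 28.7% ± 10.4, a log2 fold change of 2.56 ± 0.62 (edgeR adjusted p = 0.00412). Of the 71 genera 21.1% were called in that comparison, and 11 of the 71 were called higher. In WT mice it stood at 18.7% ± 6.23 after re-separation and was not called (0.88 ± 0.59; edgeR adjusted p = 0.490, 1.41% of genera called). The difference between these changes was not called either (1.68 ± 0.83; edgeR adjusted p = 0.689, with 0% of genera called), so the 2 genotypes are not shown to differ in it.

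The genotypes were not called different in this sum at any time. KO minus WT was -0.91 ± 0.59 at weaning (log2 fold change with SE; edgeR adjusted p = 0.251), -0.82 ± 0.59 after co-housing (0.551) and 0.87 ± 0.59 after re-separation (0.733). Of all genera, 23.9%, 1.41% and 0% were called in these 3 comparisons. The value after co-housing rests on library 19 and was 0.14 without it. Without library 4 the sum was lower in KO mice at weaning (-1.79; edgeR adjusted p = 0.0174). The genotype difference changed by 0.10 ± 0.83 from weaning to co-housing (edgeR adjusted p = 1.00, 4.23% of genera called) and, for Muribaculum, by -1.92 ± 1.14 (edgeR adjusted p = 0.326). The genotype difference in the sum moved upwards from weaning to re-separation by 1.78 ± 0.83 and was not called (edgeR adjusted p = 0.153, with 18.3% of genera called), but was called without library 4 (2.66; edgeR adjusted p = 0.0133). Against weaning, the re-separated sum was at 0.62 ± 0.59 in KO mice (edgeR adjusted p = 0.586) and at -1.16 ± 0.59 in WT mice (0.157), neither called, with 28.2% and 12.7% of genera called. The KO value was called without library 4 (1.50; edgeR adjusted p = 0.0490).

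As a share of Bacteroidales reads alone, Muribaculaceae had near-equal means in the genotypes at weaning (36.1% ± 11.6 in KO and 36.3% ± 7.89 in WT mice) and after co-housing (28.7% ± 6.68 and 28.1% ± 9.25). After re-separation they were 49.2% ± 5.67 in KO mice, from 43.0% to 57.2%, and 33.7% ± 7.84 in WT mice. The WT libraries lay between 27.9% and 32.4% except library 26 at 47.4%, so 4 of the 5 fell below every KO library. The remaining Bacteroidales, mainly Prevotellaceae, Rikenellaceae and Bacteroidaceae, held 29.7% ± 4.74 of all reads in KO and 37.4% ± 8.81 in WT mice at that time. These shares are a description and were not tested.

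Muribaculum, a genus of the family with cultured species, showed its widest spread among KO mice at weaning. Libraries 1 to 5 held 7.81%, 1.37%, 0.211%, 3.19% and 1.21% (2.76% ± 3.02), and WT libraries 6 to 10 held 1.62%, 0.843%, 0.180%, 0.816% and 0.656% (0.823% ± 0.52). Library 1 was far above all others, and the groups overlapped. Without library 1 the KO mean was 1.50%. In library 1 Muribaculum made up 41.3% of the reads of its family, against 1.49% to 12.3% in the other KO weaning libraries and 0.855% to 3.84% in the WT ones. After co-housing the genus stood at 0.238% ± 0.0886 in KO and 0.350% ± 0.353 in WT mice, where library 19 held 0.977% and the other 4 between 0.136% and 0.254%. After re-separation KO libraries 21 to 25 held 1.48%, 1.04%, 1.05%, 0.947% and 0.831%, and WT libraries 26 to 30 held 0.982%, 0.388%, 0.388%, 0.272% and 0.542%. All but WT library 26 were then below the lowest KO library.

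Muribaculum fell in KO mice from weaning to co-housing with a log2 fold change of -3.80 ± 0.89 with its SE (edgeR adjusted p = 0.00143) and rose from co-housing to re-separation with 2.73 ± 0.85 (edgeR adjusted p = 0.0244). The rise was lost without library 12, 13 or 21 and when libraries were scaled by size alone (2.17, adjusted p = 0.0626). In WT mice the fall was -1.88 ± 0.83 and was not called (edgeR adjusted p = 0.0658), but it was called without library 8 or 19. WT mice gave 0.63 ± 0.80 from co-housing to re-separation (edgeR adjusted p = 0.680). Between the genotypes the genus was not called at weaning (1.08 ± 0.81; edgeR adjusted p = 0.322), after co-housing (-0.84 ± 0.81; 0.769) or after re-separation (1.26 ± 0.81; 0.733). The value after co-housing was 0.42 without library 19. Against weaning, the re-separated genus was at -1.07 ± 0.81 in KO (edgeR adjusted p = 0.452) and -1.25 ± 0.81 in WT mice (0.269).

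Among the single variants, reads were spread over many. In the weaning and co-housing libraries the leading variant held 15.2% of the family's reads on average over libraries, the leading 6 held 49.5% and the leading 20 held 86.9%. In the re-separation libraries these shares were 14.2%, 44.3% and 83.4%. Of the 64 variants of the first set 20 were found in at most 3 of 20 libraries, whereas 36 of the 62 variants of the second set were found in all 10, with the deeper sequencing of that set beside it. At an equal depth of 10491 reads a weaning or co-housing library was expected to hold 31.9 ± 7.47 of its variants (SD, n = 20) and a re-separation library 48.2 ± 2.75 (n = 10). The numbers found were 32.15 ± 7.57 and 49.2 ± 2.90, so this step changed little. Only 5 counts in the table equalled 1, so it cannot set the deeper sequencing aside.

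Row 73 led the weaning and co-housing set. It held 0.539%, 6.29%, 3.04%, 11.5% and 1.66% in KO libraries 1 to 5 and 6.69%, 1.11%, 3.11%, 0.514% and 2.89% in WT libraries 6 to 10. After co-housing it held 0.811% ± 0.357 in KO and 2.27% ± 2.21 in WT mice, with 6.05% in library 19. Its shares at weaning ran across more than an order of magnitude within each genotype, and the groups overlapped. Row 90 had a smaller spread, with 2.35% ± 1.04 in KO and 4.42% ± 1.88 in WT mice at weaning and 0.851% ± 0.452 and 0.839% ± 0.517 after co-housing. All WT weaning libraries (2.34% to 6.80%) lay above all co-housed WT libraries (0.279% to 1.66%) for this variant. Row 65 held 2.02% ± 1.54 and 1.72% ± 1.20 at weaning and 0.363% ± 0.278 and 0.427% ± 0.275 after co-housing. Row 128 held 0.704% ± 0.745 in KO and 1.86% ± 1.24 in WT mice at weaning, and row 58 held 0.673% ± 0.740 and 1.40% ± 0.469. None of these 5 was called in a comparison of edgeR.

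Library 1, a KO library at weaning, stood apart. It held 13 of the family's variants, where the other 19 libraries of its set held 21 to 41. Its 3 leading variants made up 77.2% of its Muribaculaceae reads, against 39.0% to 42.9% in the other KO weaning libraries. Rows 128, 58, 66, 119, 113 and 76, present in all WT weaning libraries, had 0 reads in it. With library 1 included, KO weaning libraries held 28.0 ± 10.8 variants and WT weaning libraries 38.0 ± 3.74.

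**Figure D2:**
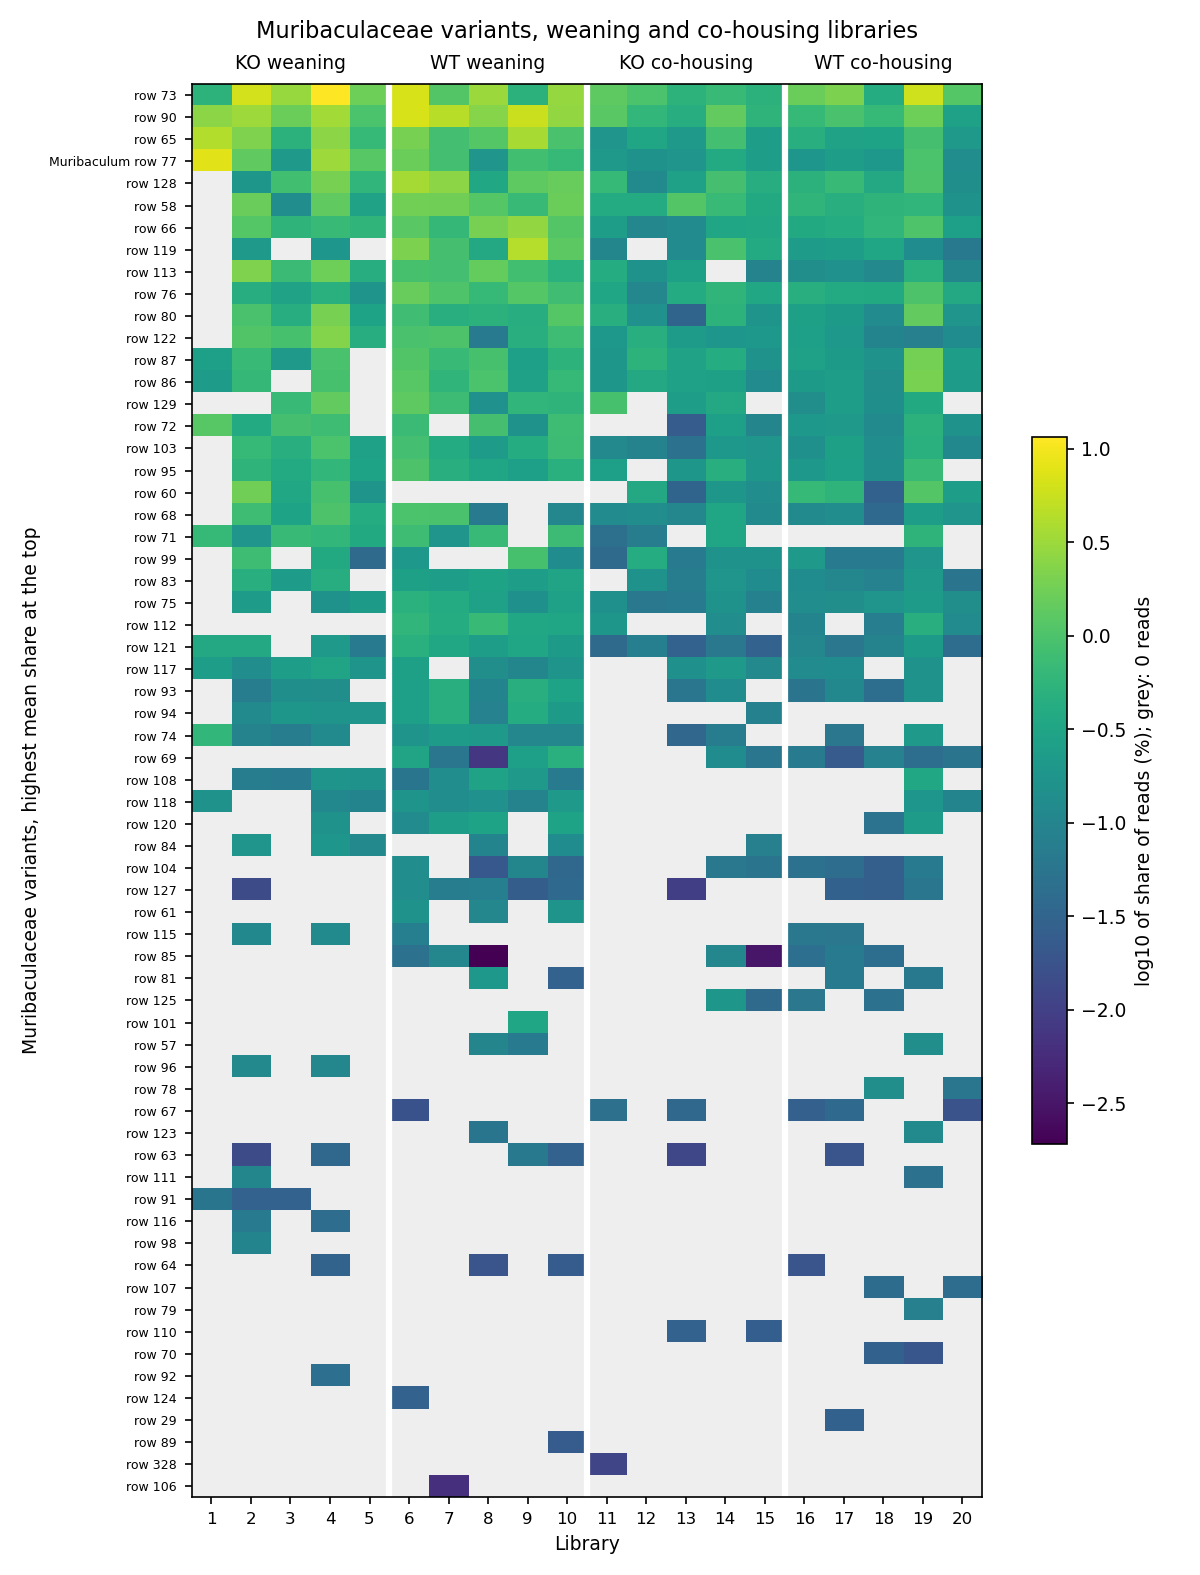
Shares of the 64 Muribaculaceae variants in the 20 weaning and co-housing libraries, 1 row for each variant and 1 column for each library, coloured by the log10 of the percentage of reads, with grey for 0 reads. Library 1 has reads in 13 variants; row 60 is grey in WT libraries 6 to 10, and rows 112 and 69 are grey in KO libraries 1 to 5.

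At weaning 56 of the 64 variants were found, of which 36 (64.3%) were in both genotypes, 7 in KO mice only and 13 in WT mice only. Of all 337 variants found at weaning 36.5% were in both. Of the 64, 45 passed the filter of at least 10 reads in at least 3 libraries, and 7 of those differed by genotype (edgeR), 1 higher and 6 lower in KO mice. Over all 292 variants tested 20.9% were called, 6.85% higher and 14% lower. The median log2 fold change of the 45 was -1.02, against -0.16 for all variants tested.

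Row 60 was the 1 variant higher in KO mice. KO libraries 1 to 5 held 0 reads, 1.72%, 0.347%, 0.900% and 0.172% (0.627% ± 0.697), and all 5 WT libraries had 0 reads. The groups overlapped only in library 1. The mean was at least 51.9-fold above the WT floor, and at least 29.3-fold without library 2 (edgeR adjusted p = 0.00232). The call held in each of the 16 alternative settings.

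Row 112 had the reverse pattern. It had 0 reads in all KO libraries and 0.592%, 0.415%, 0.701%, 0.341% and 0.331% in WT libraries 6 to 10 (0.476% ± 0.163). The groups did not overlap. WT mice were at least 30.4-fold higher than the KO floor (edgeR adjusted p = 0.00378), and the call held in each of the 16 settings. Row 69 also had 0 reads in KO mice, with 0.306%, 0.0575%, 0.00764%, 0.257% and 0.487% in WT mice, at least 14.3-fold higher and 10.04-fold without library 10 (edgeR adjusted p = 0.0102). WT library 8 held that variant below the floor of every KO library. The call of row 69 was lost only without libraries 1, 5, 11 and 19 together (adjusted p = 0.0501).

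Row 119 was the most abundant of the variants lower in KO mice. KO libraries held 0.202% (library 2), 0.184% (library 4) and 0 reads in the other 3, and WT libraries held 2.07%, 0.888%, 0.370%, 4.31% and 1.30%. The groups did not overlap. On the log2 scale KO minus WT was -4.50 ± 1.63 (SE; edgeR adjusted p = 0.0432), and the call was lost without any 1 of libraries 1, 2, 3, 5, 6, 8, 9 and 10 (adjusted p 0.0503 to 0.0905). Row 104 had 0 reads in KO mice and reads in 4 of 5 WT libraries, with 0.0591% ± 0.0581 (at least 3.77-fold higher in WT, 2.54-fold without library 6; edgeR adjusted p = 0.0324). Row 61 was found in WT libraries 6, 8 and 10 alone, at 0.162%, 0.109% and 0.172% (at least 5.65-fold; edgeR adjusted p = 0.0324), and in no other library of the set. Row 81 was found in WT libraries 8 (0.201%) and 10 (0.0291%), at least 2.93-fold higher, with no fold left without library 8 (edgeR adjusted p = 0.0477). The call of row 104 was lost without any 1 of libraries 1 to 6. That of row 61 was lost without any 1 of libraries 1 to 5 (adjusted p 0.0615 to 0.0718) and with DESeq2 (adjusted p = 0.263), and without library 6, 8 or 10 the variant no longer passed the filter. Row 61 thus passed the filter only through the group in which it was high. Its p-value and its place among the called variants are therefore not support for a genotype difference. The call of row 81 was lost without any library but 7.

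The number of called variants fell to 3 without library 1, 2, 3, 5 or 6, to 4 without library 8 or 10, and to 2 without libraries 1, 5, 11 and 19 together. These 2 were among the 7. The share of all variants called in these fits is not given, so the counts describe the fits and not the family. For 2 further variants, rows 76 and 127, the KO and WT ranges did not overlap at weaning, though neither was called. With rows 119, 112 and 69 this made 5 of the 64 members wholly lower in KO mice, against 2.69% of all 483 variants with reads in the set. Row 76 held 0 reads to 0.471% in KO and 0.651% to 1.51% in WT mice.

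**Figure D3:**
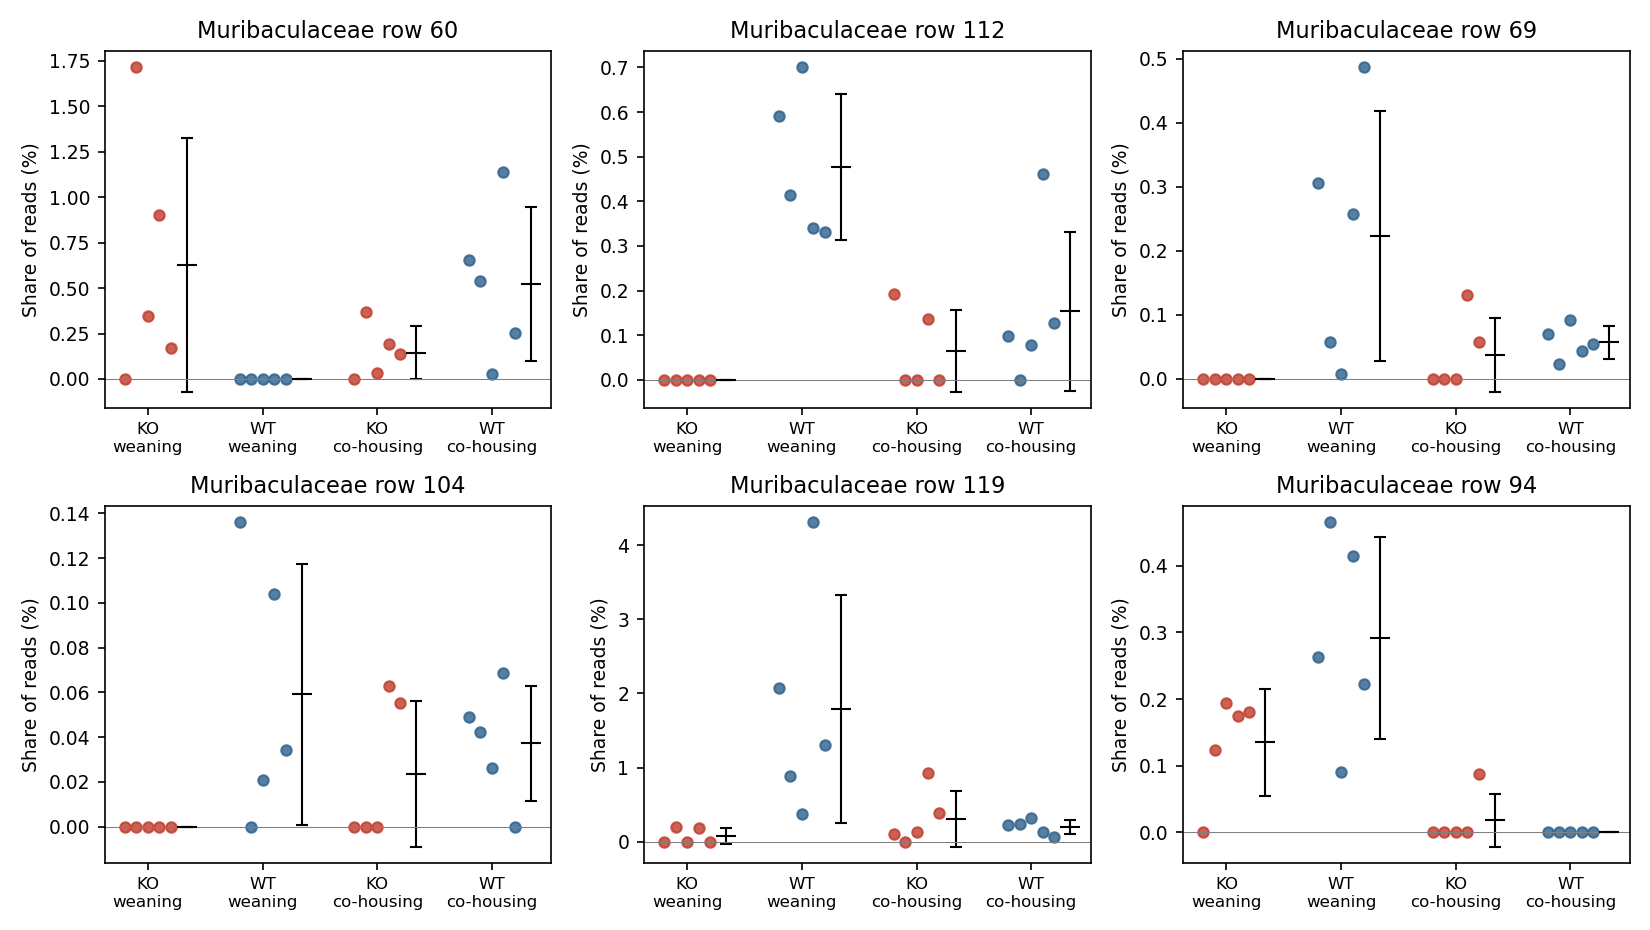
Share of reads (%) of rows 60, 112, 69, 104, 119 and 94 in each of the 20 weaning and co-housing libraries, KO in red and WT in blue, with the group mean and SD (n = 5) in black and a separate axis for each variant. Row 60 has 0 reads in the WT weaning libraries and reads in all 5 co-housed WT libraries, rows 112, 69 and 104 have 0 reads in the KO weaning libraries and reads in 2 co-housed KO libraries each, and row 94 has reads in 9 of 10 weaning libraries and 1 of 10 co-housed ones.

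After co-housing 54 of the 64 were found, with 36 (66.7%) in both genotypes, 4 in KO mice only and 14 (25.9%) in WT mice only. Of all 432 variants found after co-housing 63.7% were in both and 22.9% in WT mice only, near the family's values. None of the 45 tested was called between the genotypes (edgeR), against 1.03% of all 292. An unadjusted edgeR p under 0.05 was found for 8 of the 45 and for 41 of all 292. DESeq2 and limma-voom called 0 of the members as well, against 2.05% and 4.45% of all variants. No variant of the 64 had KO and WT ranges that did not overlap, against 0.621% of all 483 variants of the set. The median log2 fold change was -0.74 for the 45 and -0.42 for all variants tested.

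The variants that 1 genotype carried at weaning had different courses. Of the 7 found in KO mice only, row 60 was in both genotypes after co-housing, row 111 in WT mice only and the other 5 in neither. Of the 13 found in WT mice only, rows 67, 69, 85, 104 and 112 were in both genotypes after co-housing, 3 were in WT mice only and 5 in neither. Of the 10 in neither, all but rows 91 and 61 had been found in 1 or 2 libraries at weaning. Of the 36 in both genotypes at weaning 29 were still in both, and 8 variants appeared that had no reads at weaning.

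Row 60 was found in all 5 co-housed WT mice, at 0.653%, 0.540%, 0.0289%, 1.14% and 0.255% (0.523% ± 0.422). This was at least 43.3-fold above the WT weaning floor, and 30.6-fold without library 19 (edgeR adjusted p = 0.0241). KO mice held 0 reads, 0.367%, 0.0316%, 0.193% and 0.136% at that time, so the co-housed genotypes overlapped. Its genotype difference changed from weaning to co-housing (edgeR adjusted p = 0.00521), with 6.16% of all variants called in this comparison, and that call held in each of the 25 alternative settings. The rise in WT mice was lost without any 1 of libraries 6, 7, 8, 9, 10 and 16 (adjusted p 0.0508 to 0.0952).

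Row 112 moved the other way and appeared in KO libraries 11 (0.192%) and 14 (0.135%), with 0 reads in the other 3. This was at least 4.19-fold above the KO weaning floor, and 2.16-fold without library 11 (edgeR adjusted p = 0.0200). WT mice held 0.0979%, 0 reads, 0.0789%, 0.462% and 0.128%. Its genotype difference changed as well (edgeR adjusted p = 0.0376), but that call was lost without any 1 of 12 of the 20 libraries (adjusted p up to 0.0752). The gain in KO mice was lost without library 1 (adjusted p = 0.0516), without libraries 1, 5, 11 and 19 (0.109) and with limma-voom (0.227), and in a fit to the 2 groups the variant did not pass the filter. Row 69 appeared in KO libraries 14 (0.130%) and 15 (0.0584%), at least 2.41-fold above the floor and with no fold left without library 14 (edgeR adjusted p = 0.0374). Its call was lost without any 1 of 7 libraries. Row 104 appeared in the same libraries 14 and 15, at 0.0628% and 0.0551%, and was not called (edgeR adjusted p = 0.0566). Row 119 was found in 4 of 5 co-housed KO mice, at 0.310% ± 0.376, and at 0.198% ± 0.100 in WT mice.

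**Figure D4:**
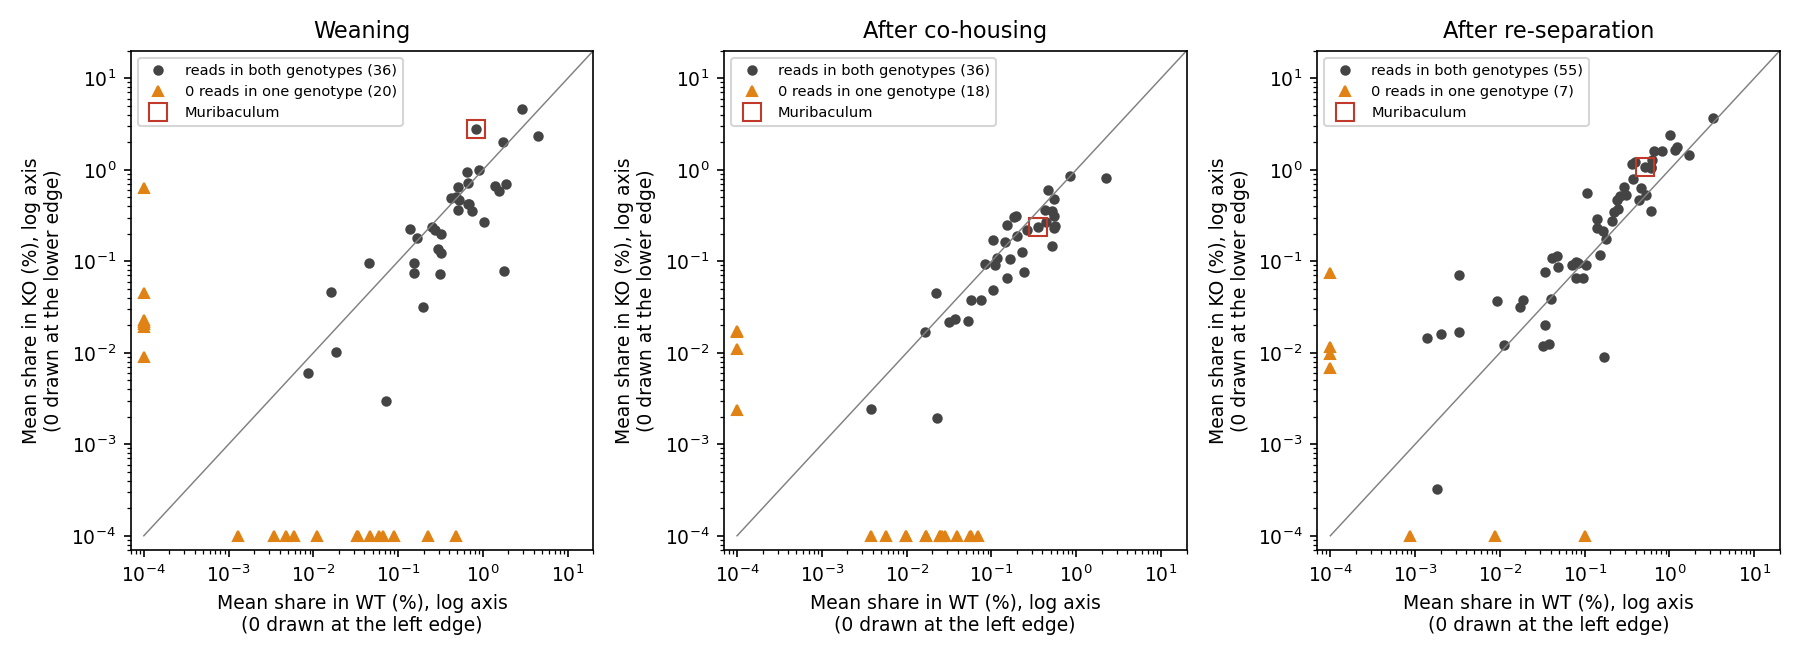
Mean share of reads (%) in KO (vertical) against WT (horizontal) for each Muribaculaceae variant found at the 3 times, on log axes, with a mean of 0 drawn at the edge, the line of equal shares in grey and Muribaculum boxed in red. Variants with 0 reads in a genotype (orange triangles) number 20 of 56, 18 of 54 and 7 of 62, and after re-separation 45 of the 62 lie above the line.

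Most of the family's variants were lower after co-housing than at weaning, while most tested variants were higher. The summed share of the other Bacteroidales also fell over this interval, as given above, so a fall was not particular to this family. In WT mice 41 of the 45 members had a negative log2 fold change, with a median of -1.65 against 1.84 for all 292 variants. In KO mice 34 were negative and 8 positive, with a median of -1.30 against 1.24. With library size alone as scaling the medians of the members were -1.43 and -1.25 and those of all variants 2.28 and 0.90. Called variants were few: 2 of 45 in WT mice, 1 higher and 1 lower, and 7 of 45 in KO mice (edgeR). Of all variants 0.685% were called in WT mice, with 0.342% higher and 0.342% lower, and 27.1% in KO mice. The WT count was 6 with DESeq2, with 12% of all variants called, and 8 with limma-voom, with 19.2% of all called. It was 0 without library 6, 7, 8, 9, 10 or 16. In WT mice the 2 were row 60, above, and row 94.

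Row 94 was a regular member of the weaning community and was rarely found after co-housing. It held 0 reads, 0.123%, 0.194%, 0.175% and 0.181% in KO libraries 1 to 5 and 0.264%, 0.466%, 0.0898%, 0.415% and 0.222% in WT libraries 6 to 10. After co-housing it had reads in library 15 (0.0875%) and in none of the other 9. In WT mice this was at least 27.2-fold lower (edgeR adjusted p = 0.0475), a call lost without any 1 of 9 of the 10 libraries (adjusted p 0.0509 to 0.0987). Beside row 94, rows 90, 58, 119, 113, 83 and 121 had WT weaning ranges wholly above the co-housed ones, 7 of the 64 members against 1.86% of all 483 variants. Between the same times in KO mice the ranges overlapped for all 64 members, with no share of all variants given.

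In KO mice 2 variants rose, rows 112 and 69 above, and 5 fell, against 22.6% of all variants called higher and 4.45% called lower. Muribaculum row 77 fell with a log2 fold change of -3.34 ± 1.24 with its SE (edgeR adjusted p = 0.0458), a call lost without any 1 of 8 libraries. In these libraries the genus sum is row 77 itself, so the fit of genera rests on the same reads. There it was called under each of 16 alternative settings, so how firmly the call holds depends on the fit. Row 108 had 0 reads, 0.0734%, 0.0705%, 0.172% and 0.162% at weaning and 0 reads after co-housing, at least 7.72-fold lower (edgeR adjusted p = 0.0254), and its call was lost without library 4 (adjusted p = 0.0546). Row 118 went from 0.166%, 0 reads, 0 reads, 0.112% and 0.0953% to 0 reads, at least 6.02-fold lower (edgeR adjusted p = 0.0328). Row 115 had reads in libraries 2 (0.112%) and 4 (0.121%), at least 3.75-fold above the co-housed floor and 2.25-fold without library 4 (edgeR adjusted p = 0.0485). Row 120 rested on library 4 alone (0.160%; edgeR adjusted p = 0.0485). The call of row 118 was lost without any 1 of libraries 1, 4, 14 and 15, and those of rows 115 and 120 without any 1 of the 10 libraries.

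Rows 108, 118 and 120 also had reads in 5, 5 and 4 of the 5 WT libraries at weaning and in 1, 2 and 2 after co-housing. Library 19 held all 3, at 0.349%, 0.187% and 0.231%. That library had the highest share of the family among co-housed mice and 41 of its variants, the most among them. Its Bacteroidales held 66.4% of reads, against 16.9% to 45.6% in the other 9 co-housed libraries. The part of library 19 in these values is shown by the results without it, above.

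After re-separation most of the variants were found in both genotypes. Of the 62 variants 55 (88.7%) were in both genotypes, against 68.9% of all 466 variants, and 36 were in all 10 libraries. KO libraries held 49.4 ± 2.79 of the variants and WT libraries 49.0 ± 3.32. None of the 54 variants tested was called between the genotypes (edgeR, with 1.44% of all 278 called). An unadjusted edgeR p under 0.05 was found for 8 of the 54 and for 29 of all 278. DESeq2 called 4 (5.76% of all variants called) and limma-voom 2 (7.91% of all). The log2 fold change was positive, that is higher in KO mice, for 40 of the 54, with a median of 0.70 against -0.35 for all variants tested. The median was 0.67 with library size alone and 0.88 with DESeq2.

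Row 712 led this set with 8.21%, 3.71%, 1.20%, 3.00% and 2.32% in KO libraries 21 to 25 and 5.15%, 3.59%, 2.90%, 2.07% and 2.50% in WT libraries 26 to 30. It was the leading variant in 9 of the 10 libraries. Row 759 held 2.39% ± 1.72 in KO and 1.02% ± 0.778 in WT mice, row 719 held 1.76% ± 0.873 and 1.23% ± 0.307, and row 742 held 1.65% ± 0.799 and 1.16% ± 0.379. Row 794 held 1.59% ± 0.779 and 0.811% ± 0.590. Row 699 had the reverse order, with 1.46% ± 0.705 and 1.71% ± 0.393. The genotypes overlapped in all 6.

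The ranges of 4 of the 62 variants did not overlap, against 2.58% of all 466 variants of the set, and they were picked with their values in view. Row 738 held 2.15%, 0.820%, 1.51%, 0.758% and 0.832% in KO and 0.552%, 0.366%, 0.294%, 0.248% and 0.504% in WT mice, or 1.68 ± 0.49 higher on the log2 scale (SE; edgeR adjusted p = 0.149, DESeq2 adjusted p = 0.0122). Row 737 held 1.15% ± 0.594 and 0.358% ± 0.0971 (1.73 ± 0.49; edgeR adjusted p = 0.149, DESeq2 adjusted p = 0.00744). All KO libraries lay above all WT libraries in both. Row 766 was low throughout, at 0.0177% to 0.228% in KO mice and at 0.0163% in 1 WT library, with limma-voom alone calling it (adjusted p = 0.0326, edgeR adjusted p = 0.258). Row 768 was lower in KO mice, with 0.0452% in library 25 and 0 reads in the other 4 against 0.109%, 0.235%, 0.236%, 0.0857% and 0.176% in WT mice, also called by limma-voom alone (adjusted p = 0.00362, edgeR adjusted p = 0.214). Rows 766 and 768 passed the filter only through the genotype in which they were high. Their p-values are therefore not support for a genotype difference. Row 686 had 0 reads in KO mice and 0.194%, 0.115%, 0.0798%, 0 reads and 0.111% in WT libraries 26 to 30 (DESeq2 adjusted p = 0.00041, edgeR adjusted p = 0.0976). It also passed the filter only through the WT libraries, so neither p-value is support for a genotype difference.

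The shares of some variants went up and down together across libraries. Over the 20 libraries of the first set, the shares of rows 87 and 86 had a Pearson r of 0.985 and a Spearman rho of 0.955, and their ratio was 0.829 to 1.56 in the 18 libraries that held both. Library 3 held row 87 at 0.211% and 0 reads of row 86, and library 5 held neither. Over the 10 re-separation libraries, rows 738 and 737 had an r of 0.989 and a ratio of 0.884 to 1.25, and rows 706 and 708 an r of 0.982 and a ratio of 0.993 to 1.58. Rows 759 and 761 had an r of 0.957 with a wider ratio of 2.16 to 7.99, and rows 794 and 795 an r of 0.955 with a ratio of 2.12 to 3.52. These pairs are among the highest r of 210 and 465 compared, over variants with a mean share of at least 0.1% and reads in at least 80% of the libraries of their set, so they are a description. The shares of a library have a common total, which is part of any such correlation. Rows 737 and 738 moved as 1 in the comparison of genotypes and are not separate evidence.

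**Figure D5:**
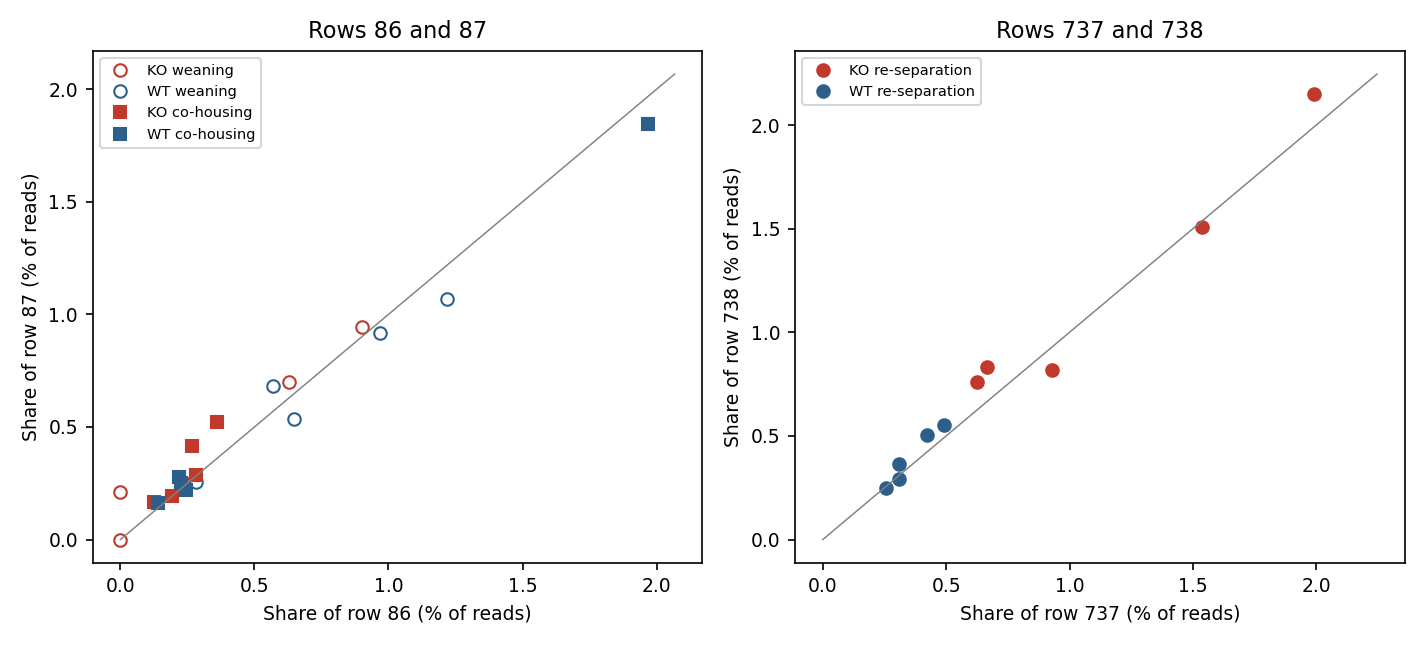
Share of reads (%) of row 87 against row 86 in the 20 weaning and co-housing libraries (left) and of row 738 against row 737 in the 10 re-separation libraries (right), KO in red, WT in blue, co-housed libraries as squares, with the line of equal shares in grey. Points lie along the line in both panels, apart from KO library 3 on the left with 0 reads of row 86, from 0 to about the 1.97% and 1.85% of library 19 on the left.

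The labels also carry a name below the genus, which the selection of members did not use. Both sets held 14 variants labelled as uncultured Bacteroidales, 7 with no name at that level, 3 labelled unidentified, and 35 and 34 labelled as uncultured bacterium. The 14 uncultured Bacteroidales variants, which include rows 119, 86, 87, 118, 120 and 81, made up 5.08%, 8.46%, 5.55%, 8.72% and 6.95% of the family's reads in KO weaning libraries and 14.0%, 14.6%, 15.0%, 17.7% and 13.8% in WT weaning libraries. The ranges did not overlap at weaning. Without row 119 they were 5.08% to 8.29% in KO and 2.77% to 13.2% in WT mice and overlapped, through library 9 at 2.77%. The other 4 WT libraries, at 8.45% to 13.2%, remained above every KO library. After co-housing the shares were 15.1% ± 4.31 in KO and 14.8% ± 3.68 in WT mice. After re-separation the 14 of that set, which include rows 737 and 738, held 16.0% ± 3.39 in KO and 10.7% ± 1.15 in WT mice, with ranges of 11.5% to 20.7% and 8.96% to 11.8% that overlapped. At weaning the variants labelled as uncultured bacterium went the other way, and their ranges did not overlap either. They made up 73.6% to 85.2% of the family's reads in KO and 64.6% to 72.6% in WT mice. All labels share the total of the family, so these are not separate results. These groupings were chosen after their values were seen and have no test.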

How the data were processed

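Sequence variants of the V4 region of the bacterial 16S rRNA gene were counted in 30 stool libraries. The deposited values are whole-number read counts per variant and library, not normalized (DADA2 by the table's name). Upstream settings, taxonomy and filters: not given in the sources used here. R 4.5.1 and limma are listed in the submitters' processing notes, their use unstated. The 4 mitochondrial variants, at most 0.829% of a library, were left out. The members and lists were chosen with earlier results of these data known.

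Counts were tested on all variants of a library set, or on counts summed to genera over all 30 libraries, with edgeR 4.0.16 in R 4.3.3 (quasi-likelihood, robust fit, TMMwsp scaling, 1 coefficient per group), after a filter of at least 10 reads in at least 3 libraries. This left 292 and 278 variants and 71 genera. P-values were adjusted by Benjamini-Hochberg over all features tested, at a threshold of 0.05. Log2 fold changes carry standard errors. Against a group with 0 reads, a fold is a lower bound over the mean share of 3 counts per library, and only 5 counts in the table equalled 1, so such bounds would be too high if low counts had been removed earlier. Named were the sums, variants called in edgeR (at most 10 per comparison and direction, by p), the 6 leading variants by mean share and up to 3 Muribaculum variants of each set, and up to 6 variants per time found in 5 of 5 libraries of one genotype and 0 of 5 of the other. Other variants were named with their values in view. Alternatives were scaling by library size, DESeq2 1.42.0, limma-voom 3.58.1, no filter, a fit to only the groups compared, leaving out each library, and leaving out libraries 1, 5, 11 and 19, which stood apart from their groups. The test was also run on simulated counts with a fixed dispersion, not fitted to these libraries, and with large planted changes only. That run does not show how well the test performs on these data. Tables and plots were made with Python 3.11.15.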

Additional observations from a re-analysis of the deposited data

Results flagged for a closer look

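In groups of 5 libraries, a library was taken as far from the others where the gap to its neighbour, divided by the range, passed Dixon's critical value of 0.71. This held in 12 of 96 groups examined. A rate of about 1 in 20 applies to normally distributed values, and these shares include many zeros. The 12 can therefore not be set against that rate, and the shares of one library are not independent of each other. WT library 19 after co-housing accounted for 7 of the 12: the family (26.5%), Muribaculum (0.977%, also as row 77), the family without Muribaculum (25.5%), and rows 108 (0.349%), 112 (0.462%) and 120 (0.231%). The others were row 65 in KO library 14 (0.850%) and row 94 in KO library 15 (0.0875%) after co-housing, and row 81 in WT library 8 (0.201%), row 115 in WT library 6 (0.0809%) and row 120 in KO library 4 (0.160%) at weaning. For rows 94, 108 and 115, and for row 120 in library 4, the rest of the group had 0 reads, which fixed the flag in advance.

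The genotype difference changed between weaning and co-housing for 2 of the 45 variants tested, by edgeR's test of that change. Of all 292 variants 6.16% were called in it. Row 60 went from reads in 4 of 5 KO and 0 of 5 WT mice to reads in 4 of 5 KO and 5 of 5 WT mice (edgeR adjusted p = 0.00521). Row 112 went from 0 of 5 KO and 5 of 5 WT mice to 2 of 5 and 4 of 5 (edgeR adjusted p = 0.0376), a call lost without any 1 of 12 of the 20 libraries.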

How the results depend on the processing

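Counts of called variants moved most. At weaning 7 variants became 4 without a filter and 2 without libraries 1, 5, 11 and 19, and 3 to 7 with 1 library left out. In WT mice over time 2 became 6 with DESeq2, 8 with limma-voom, 11 in a fit to the 2 groups and 6 without those 4 libraries, and 0 to 4 with 1 left out. Of all variants 0.685% were called there with edgeR, 12% with DESeq2 and 19.2% with limma-voom. In KO mice over time 7 became 4 without a filter, 2 with limma-voom, 2 in the fit to 2 groups and 2 without the 4 libraries, and 1 to 6 with 1 left out. The 2 changes of the genotype difference became 5 with DESeq2, 1 with limma-voom and 1 without the 4 libraries, and 1 to 3 with 1 left out. After re-separation 0 became 4 with DESeq2, 1 without a filter, 2 with limma-voom and 0 to 3 with 1 left out (3 without library 25, 1 without library 29). Of all variants 1.44% were called after re-separation with edgeR, 5.76% with DESeq2 and 7.91% with limma-voom. After co-housing 0 were called under every setting. The share of all variants called is not given for the remaining settings, so the counts describe the settings and not the family.

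For Muribaculum in WT mice from weaning to co-housing, the log2 fold change passed the threshold with DESeq2 (-2.20), without a filter (-2.09), in the fit to 2 groups (-2.38) and without the 4 libraries (-3.14), with -3.14 to -1.59 over single libraries left out. The rise of Muribaculum in KO mice after co-housing was 2.17 by library size alone and 2.38 to 3.06 with 1 library left out. The fall of the rest of the family in KO mice was -1.39 with limma-voom and -2.19 to -1.06 with 1 left out. From weaning to re-separation that sum passed in WT mice in the fit to 2 groups (-1.10) and ranged from 0.19 to 1.50 in KO mice. KO minus WT at weaning ranged from -1.79 to -0.66. After co-housing it turned in sign without the 4 libraries, to 0.50 for Muribaculum and 0.15 for the rest, and ranged from -1.08 to 0.42 and from -1.04 to 0.14. The uncalled change of the genotype difference in Muribaculum from weaning to re-separation was -0.69 by library size and -0.19 with DESeq2 (-0.16 to 0.71 with 1 left out). That of the rest from weaning to co-housing was -0.15 by library size (-0.15 to 1.05). Row 120 in KO mice ranged from -6.72 to 0, as library 4 held all its weaning reads. Except for that row, the cause was not tested. Scaling by library size moved the median of all genera by up to 0.99 (WT, weaning to co-housing). Variants near the floor of 3 counts could not be compared at this depth. No paired analysis was possible because no label ties a mouse, cage or number across groups.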
